A study of Mus musculus with 3 samples.

Results

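Transcripts of organic ion and monocarboxylate transporters were followed in 3T3-L1 cells, an established clonal line of mouse preadipocytes that become fat-storing adipocytes after hormonal induction. The genes were every mouse gene of the Slc16a, Slc22a, Slc47a and Slco families with a probe on the array: 54 genes with 65 probes, of 20144 named genes in all. They comprised 14 Slc16a, 24 Slc22a, 2 Slc47a and 14 Slco genes, and family membership was read from the gene symbol, with no measured value used. Differentiating cells were sampled on day 2, day 8 and day 20 after induction and each sample was hybridised to 1 Agilent 1-colour array, in a study of adipocyte hypertrophy. All 3 arrays held RNA of induced 3T3-L1 cells, with no other treatment or genotype named in the labels, and day 2 is the earliest time compared here. There were no replicates and hence no tests: each difference compares 2 arrays, and the error beside it is the technical standard deviation (SD) between spots of an array, which leaves out the spread between cultures.

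Members of the Slc16a family, the monocarboxylate transporters, carry lactate, pyruvate and ketone bodies across the plasma membrane with protons, and some carry aromatic amino acids or thyroid hormone instead. The Slc22a family holds the organic cation, carnitine and organic anion transporters, the Slc47a family the proton-driven exporters of organic cations, and the Slco family the organic anion transporting polypeptides, which take up steroid conjugates, prostaglandins and thyroid hormones. Many of them are best known from liver, kidney and the blood-brain barrier. Adipocytes release lactate made from glucose through monocarboxylate transporters.

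Levels are given as log2 of the processed signal minus the 75th percentile of the same array, so that 0 is that percentile, and they compare 1 probe between days, never 2 probes with each other. Where a gene had several probes, the one brightest over the 3 arrays was used. The 75th percentile corresponded to 662, 636 and 927 intensity units on days 2, 8 and 20, and the lowest signals that the scanner software called well above background lay at -5.70, -5.76 and -5.91. Of all non-control spots, 55.3% to 56.9% were well above background, and 0 were saturated. Of 10 adipocyte markers, 9, 10 and 10 were well above background on days 2, 8 and 20. Of all 20144 named genes, 12490, 12836 and 12575 were.

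The windows around the start sites of 4 members are shown because their transcripts differed widely between days or, for Slc22a5, because it lies close to such a gene. Each runs from 250 bases before to 50 bases after the start on the strand of the gene, as listed by RefSeq for GRCm38.p6, and 43 of the 54 members had such a window. Capitals mark ACGTG, the core of the hypoxia response element, and GGGCGG, the GC box, on either strand. The sequence of Slc16a3, encoding the lactate exporter MCT4, lies at chr11:120948817-120949116 on the plus strand; that of Slc22a4, encoding the ergothioneine transporter OCTN1, at chr11:54028055-54028354 on the minus strand; that of Slc22a5, encoding the carnitine transporter OCTN2, at chr11:53891654-53891953 on the minus strand; and that of Slco2b1, a transporter of steroid sulphates, at chr7:99711291-99711590 on the minus strand, the first of 3 windows listed for this gene.
Slc16a3: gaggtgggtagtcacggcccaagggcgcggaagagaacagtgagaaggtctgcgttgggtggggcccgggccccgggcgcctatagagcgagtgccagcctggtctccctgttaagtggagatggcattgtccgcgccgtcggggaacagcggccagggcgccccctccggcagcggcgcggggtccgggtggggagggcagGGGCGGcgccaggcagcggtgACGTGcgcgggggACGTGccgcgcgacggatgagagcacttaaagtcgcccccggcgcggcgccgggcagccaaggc
Slc22a4: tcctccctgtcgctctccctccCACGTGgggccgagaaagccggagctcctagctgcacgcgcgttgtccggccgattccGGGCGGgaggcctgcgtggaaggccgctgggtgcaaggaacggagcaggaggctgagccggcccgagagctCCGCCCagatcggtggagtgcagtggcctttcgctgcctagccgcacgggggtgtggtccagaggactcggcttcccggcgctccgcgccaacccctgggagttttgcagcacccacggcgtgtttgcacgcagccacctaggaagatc
Slc22a5: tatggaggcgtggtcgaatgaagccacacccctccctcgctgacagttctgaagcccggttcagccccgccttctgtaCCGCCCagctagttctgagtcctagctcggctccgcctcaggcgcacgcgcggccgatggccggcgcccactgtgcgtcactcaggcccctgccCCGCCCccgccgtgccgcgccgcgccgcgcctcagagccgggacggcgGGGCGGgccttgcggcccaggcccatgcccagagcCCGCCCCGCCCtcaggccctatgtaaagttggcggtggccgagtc
Slco2b1: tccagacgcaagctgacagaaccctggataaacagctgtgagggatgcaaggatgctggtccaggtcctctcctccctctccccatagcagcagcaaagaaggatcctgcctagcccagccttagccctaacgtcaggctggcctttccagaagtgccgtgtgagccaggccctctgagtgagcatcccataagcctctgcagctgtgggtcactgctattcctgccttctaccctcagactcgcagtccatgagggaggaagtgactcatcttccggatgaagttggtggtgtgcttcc

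The Slc16a3 window held ACGTG 2 times, beginning 27 and 14 bases before the start, and the GC box 1 time. In the Slc22a4 window, ACGTG was found on both strands of a single CACGTG beginning 228 bases before the start, beside 2 GC boxes. Slc22a5 had 5 GC boxes and no ACGTG, and the Slco2b1 window had neither. Over 32851 windows of the same length, 19.6% held ACGTG, 7.15% held CACGTG, which contains it, and 35.7% held GGGCGG. These matches describe the letters only.

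Detection on 1 array or more was reached by 24 (44.4%) of the 54 transporter genes, against 66.8% of all named genes, and 17 were detected on all 3 arrays, against 58.6% of all named genes. By day, 17, 22 and 23 members were well above background on days 2, 8 and 20. Detection differed between the families: 9 of 14 Slc16a genes and 12 of 24 Slc22a genes were detected on at least 1 array, but 3 of 14 Slco genes and 0 of 2 Slc47a genes. No member was detected on day 2 and lost afterwards. Slc16a1, Slc16a11, Slc22a6 and Slco2b1 were detected on days 8 and 20, Slc22a2 and Slco4a1 on day 20, and Slc16a8 on day 8. A more permissive mark of the scanner software, a signal that is positive and significant, was set for 44 of the 54 members and for 89.0% of all named genes.

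Between day 8 and day 2, the widest differences were those of the lactate exporter gene Slc16a3 and the ergothioneine transporter gene Slc22a4, and more members were higher than lower on day 8. On day 8, 7 (41.2%) of 17 members measured on both days stood at least 2-fold higher, where 13.8% of all 12044 measured genes were, and 3 (17.6%) were at least 2-fold lower, where 12.9% of all genes were; 26.7% of all genes passed 2-fold in either direction. A further 5 members were detected on day 8 but not on day 2, and 3 of these were at least 2-fold higher as bounds, which 39.3% of all such genes were; 0 members were detected on day 2 but not on day 8, where 30.3% of all such genes were at least 2-fold lower. The median difference of the measured members was 0.32, beside -0.06 for all genes. Where 1 of 2 days was not well above background, the bound was taken against the lowest signal well above background on that day, or the dim value itself if higher.

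**Figure D1:**
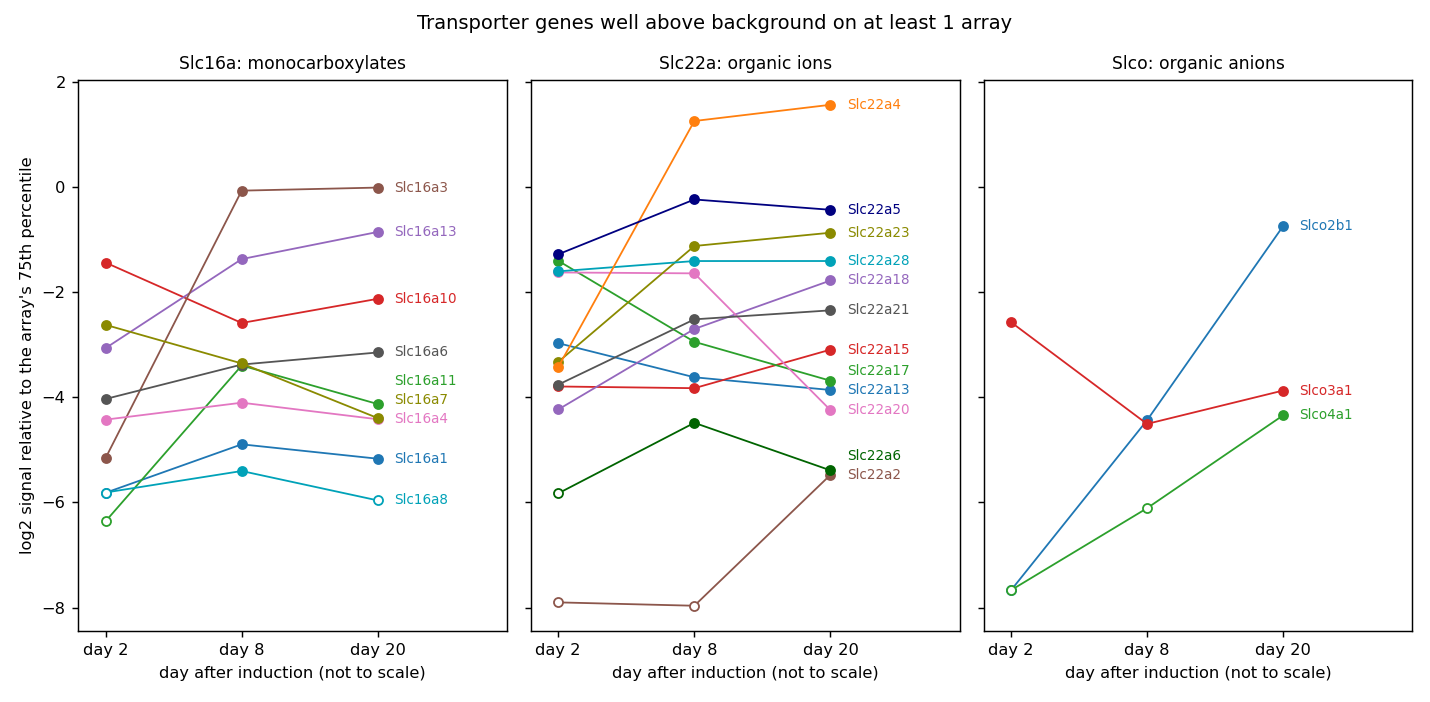
Level of each of the 24 detected transporter genes, with a panel per family, on days 2, 8 and 20 (y axis, log2 signal relative to the 75th percentile of the array; x axis, days at equal spacing), with filled points well above background and open points not. Slc16a3 and Slc22a4 were higher on days 8 and 20 than on day 2, Slco2b1 was highest on day 20, and Slc22a20 was lower on day 20 than on the other days; heights of different genes are not comparable.

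Slc16a3 had levels of -5.16, -0.07 and -0.01 on days 2, 8 and 20. It was 34.0-fold higher on day 8 than on day 2 (log2 difference 5.09, technical SD 0.158), the 62nd highest of 12044 differences. Days 20 and 8 differed by less than the technical SD (0.06, SD 0.080), but by 0.72 with spike-in scaling. The day 2 spot was dim, at 18.6 intensity units, and the first difference was 2.82 with normexp background correction, whose offset compresses dim signals. Its other probe, dim on day 2, gave a bound of at least 47.3-fold higher on day 8, and lay at -0.13 on day 8 and -0.07 on day 20. Slc16a1, encoding MCT1, which moves lactate in either direction, had a level of -5.82 on day 2, not well above background, and of -4.90 and -5.17 on days 8 and 20. It was thus at least 1.74-fold higher on day 8 than on day 2 and within 2 technical SDs between days 20 and 8 (-0.27, SD 0.169).

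Slc16a7, encoding MCT2, which has a high affinity for pyruvate, went the other way. Its levels were -2.62, -3.36 and -4.40 on days 2, 8 and 20. The difference was -0.73 (SD 0.119) for day 8 over day 2, and -1.04 (SD 0.144) for day 20 over day 8. On day 20 it was 3.42-fold lower than on day 2 (-1.77, SD 0.124). Slc16a8, encoding MCT3, a lactate transporter of the retinal pigment epithelium, was well above background on day 8 alone, at -5.40, next to the detection limit.

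Slc16a11 and Slc16a13, neighbours on chromosome 11 whose human orthologues lie in a diabetes risk locus, were both higher on day 8 by their used probes. Slc16a11 had a level of -6.36 on day 2, not well above background, and of -3.40 and -4.13 on days 8 and 20, so that it was at least 4.92-fold higher on day 8 than on day 2. Slc16a13 had levels of -3.07, -1.37 and -0.86 on days 2, 8 and 20 and was 3.23-fold higher on day 8 than on day 2 (1.69, SD 0.101). The 2 probes of Slc16a13 disagreed: the other gave -2.47, -2.99 and -2.86, a difference of -0.52 for day 8 over day 2, and the mean of both probes was 0.58, under 2-fold. Which probe reports the gene was not tested.

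Slc16a10, encoding a transporter of aromatic amino acids and thyroid hormone, had levels of -1.44, -2.59 and -2.13 and was 2.22-fold lower on day 8 than on day 2 (-1.15, SD 0.090, and -0.83 with normexp). Its other probe, which targets another transcript, was well above background on day 20 alone, at -5.21. Slc16a6, whose zebrafish orthologue exports ketone bodies from liver, had levels of -4.03, -3.38 and -3.15. It had no difference of 2-fold with the main processing (0.65, SD 0.160, for day 8 over day 2). Slc16a4 lay at -4.43, -4.10 and -4.42 and its differences were within 2 technical SDs of 0.

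In the Slc22a family, the 3 genes of the carnitine and ergothioneine transporter cluster on chromosome 11, in the order Slc22a5, Slc22a21 and Slc22a4, were each at least 2-fold higher on day 8 than on day 2. Slc22a4 had levels of -3.43, 1.25 and 1.56 on days 2, 8 and 20. It was 25.6-fold higher on day 8 than on day 2 (4.68, SD 0.112), the 80th highest of 12044 differences, and 1.24-fold higher on day 20 than on day 8 (0.31, SD 0.070). Slc22a5 had levels of -1.28, -0.24 and -0.44, with a difference of 1.04 (SD 0.075) for day 8 over day 2 and of -0.20 (SD 0.082) for day 20 over day 8. Slc22a21, encoding a mouse carnitine transporter, had levels of -3.76, -2.52 and -2.35 and was higher on day 8 than on day 2 by 1.24 (SD 0.134). All 3 cluster genes stood higher on day 8 than on day 2 under each processing alternative that gave a value, but with normexp the differences of Slc22a5 and Slc22a21 were 0.91 and 0.62, below 2-fold.

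Outside the cluster, Slc22a23, a family member with no established substrate, had levels of -3.33, -1.12 and -0.87 on days 2, 8 and 20 and was 4.61-fold higher on day 8 than on day 2 (2.20, SD 0.110). Slc22a18, an imprinted gene, had levels of -4.23, -2.70 and -1.78. It was 2.89-fold higher on day 8 than on day 2 (1.53, SD 0.154, and 0.76 with normexp) and 1.89-fold higher on day 20 than on day 8 (0.92, SD 0.101). Slc22a17, encoding a receptor for the iron carrier lipocalin 2, was lower at each later day, with levels of -1.40, -2.95 and -3.69. It was 2.91-fold lower on day 8 than on day 2 (-1.54, SD 0.100) and 1.67-fold lower on day 20 than on day 8 (-0.74, SD 0.126), but at -0.08 for the later interval with spike-in scaling. The lipocalin 2 gene itself, Lcn2, added here after its values were seen, had levels of 4.45, -1.97 and -2.21, a difference of -6.42 (SD 0.072) for day 8 over day 2.

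Among the organic anion transporters of the kidney, Slc22a6, encoding OAT1, was not well above background on day 2, at -5.83, and had levels of -4.49 and -5.39 on days 8 and 20. It was at least 2.31-fold higher on day 8 than on day 2, and the difference for day 20 over day 8 was -0.90 (SD 0.169). Slc22a13, whose human orthologue transports nicotinate and urate, had levels of -2.97, -3.62 and -3.86, and Slc22a15 of -3.80, -3.83 and -3.10. Each had no difference of 2-fold between any days with the main processing. Slc22a28, one of several neighbouring Slc22a genes on chromosome 19, had levels of -1.61, -1.41 and -1.41. Its other probe was not well above background on any array. The probes were not compared in sequence with these neighbours, so the gene behind the Slc22a28 signal is uncertain.

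Slco3a1, which encodes a transporter of prostaglandins and thyroid hormone, was the Slco gene detected on every day, with levels of -2.57, -4.51 and -3.87. It was 3.83-fold lower on day 8 than on day 2 (-1.94, SD 0.147, and -0.89 with normexp), and 1.55-fold higher on day 20 than on day 8 (0.63, SD 0.163, and 0.12 with normexp). The other probe of Slco3a1, for another transcript, was at -3.62 on day 2 and -5.20 on day 20 and too dim to be detected on day 8, which made it at least 4.40-fold lower on day 8 than on day 2. The 2 probes therefore showed the lowest signal on the same day.

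**Figure D2:**
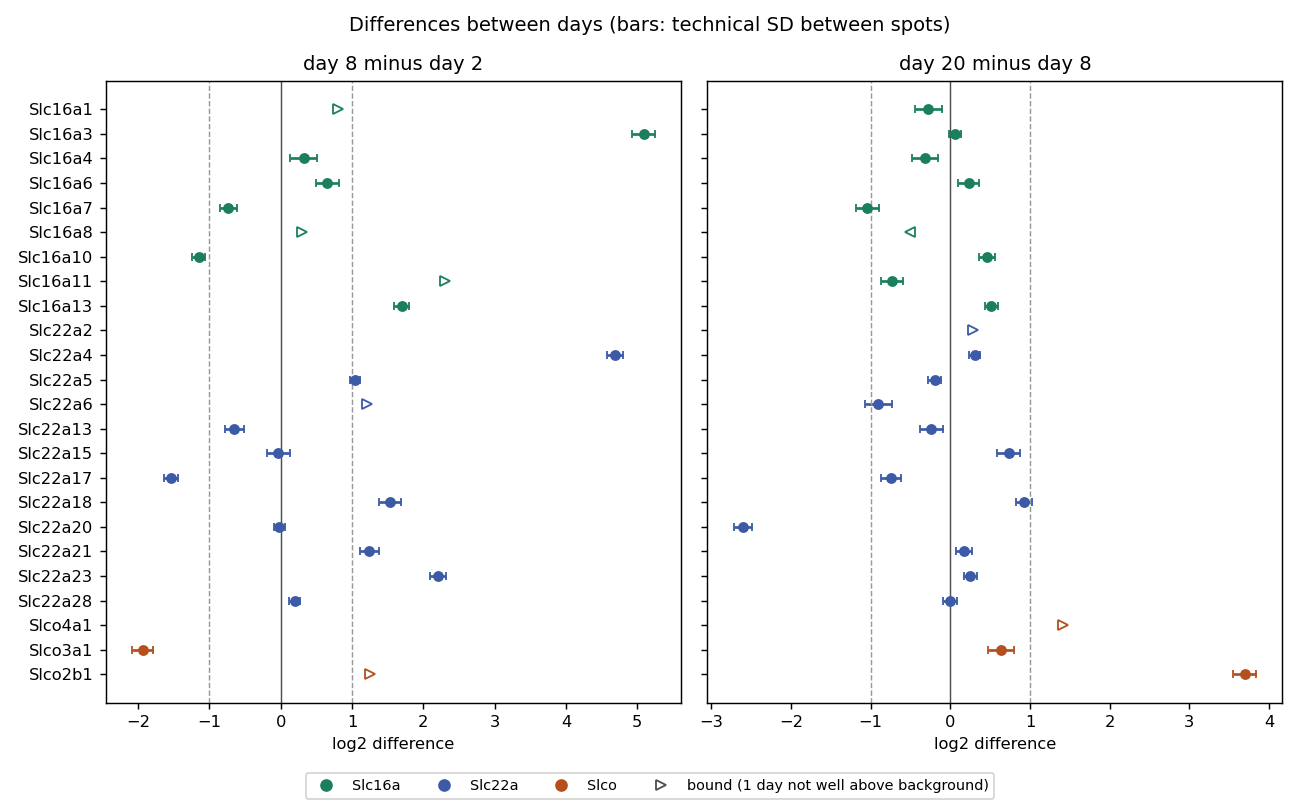
Differences in log2 signal (x axis) of the detected transporter genes for day 8 minus day 2 (left) and day 20 minus day 8 (right), with bars of 1 technical SD; open triangles are bounds where 1 day was not well above background, and dashed lines mark 2-fold. On the left, Slc16a3 at 5.09 and Slc22a4 at 4.68 stand apart on the higher side, and on the right Slco2b1 at 3.69 and Slc22a20 at -2.60 lie at the ends.

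Between day 20 and day 8 few members differed, and the widest differences were those of Slco2b1 and Slc22a20. On day 20, 1 (4.76%) of 21 members measured on both days stood at least 2-fold higher, close to the 3.58% of all 12321 measured genes, and 2 (9.52%) were at least 2-fold lower, where 1.74% of all genes were; 5.32% of all genes passed 2-fold in either direction. As bounds, 1 of 2 members detected on day 20 but not on day 8 was at least 2-fold higher, where 24.8% of such genes were. The 1 member detected on day 8 but not on day 20, Slc16a8, was at least 1.42-fold lower, so 0 passed 2-fold, where 12.8% of such genes did. The median difference of the measured members was 0.06, beside -0.05 for all genes. Scaling the arrays on spike-in probes placed the median of all genes at 0.61, and the negative differences of Slc16a1, Slc16a4, Slc22a5 and Slc22a13 then became 0.39, 0.34, 0.46 and 0.42.

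Slco2b1 had levels of -7.67, -4.44 and -0.74 on days 2, 8 and 20, and was not well above background on day 2. It was 12.9-fold higher on day 20 than on day 8 (3.69, SD 0.146), the 3rd highest of 12321 differences, with intensities of 553 units on day 20 and 29.3 units on day 8. Against day 2, the bounds were at least 2.39-fold higher for day 8 and at least 30.9-fold higher for day 20. The other Slco2b1 probe was well above background on day 20 alone, at -2.01, and at least 13.5-fold higher there than on day 8. With normexp the difference for day 20 over day 8 was 2.13, and over the 9 alternatives that gave a value it ran between 2.13 and 4.35. Slco4a1, a broadly expressed transporter of thyroid hormone, was detected on day 20 alone, at -4.34, and was at least 2.67-fold higher than on day 8.

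Since Slco2b1 is also transcribed in macrophages, the macrophage markers are given beside it. Of 9 macrophage markers with a probe, 4 were well above background on every array, where 58.6% of all named genes were. These were Csf1r, Itgam, Cd14 and C1qb, and Adgre1, Mrc1, Lyz2, C1qa and Ptprc were on none. The median difference of the 4 for day 20 over day 8 was -0.36, and the only one past 2-fold was Itgam, at -1.13. The summed signal of all 9 with a probe, with the 75th percentile as 1, was 9.08, 11.6 and 6.27 on days 2, 8 and 20. Such a sum adds different probes and is weighted to the brightest, here Itgam, with levels of 3.05, 3.30 and 2.17. Preadipocyte and fibroblast markers were higher on day 20 in 3 of 10 cases and lower in 1, with a median of 0.70, where 3.58% of all genes were higher and 1.74% lower with a median of -0.05, and their summed signal was 148, 238 and 413. The cultures were of the clonal 3T3-L1 line, so these markers describe transcripts in that line. Their relation to the Slco2b1 signal was not tested. In RNA of a whole culture, more cells of a type and more RNA per cell cannot be told apart.

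Slc22a20, encoding the organic anion transporter OAT6, known from the olfactory mucosa, had levels of -1.63, -1.64 and -4.25. Days 2 and 8 differed by less than the technical SD (-0.02, SD 0.080), and day 20 was 6.07-fold lower than day 8 (-2.60, SD 0.118), the 4th lowest of 12321 differences. It was lower on day 20 under the 9 alternatives that gave a value, between -2.60 and -1.75. Pdzk1, a scaffold protein that binds organic anion transporters in kidney, had a like course, with levels of 0.04, 0.11 and -2.21 and a difference of -2.31 for day 20 over day 8. Slc16a7 was the other member at least 2-fold lower on day 20 than on day 8, at -1.04 as given above, a value close to the threshold that was past it in 4 of 9 alternatives. Slc22a2, encoding the organic cation transporter OCT2, was detected on day 20 alone, at -5.48, and was at least 1.22-fold higher than on day 8.

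**Figure D3:**
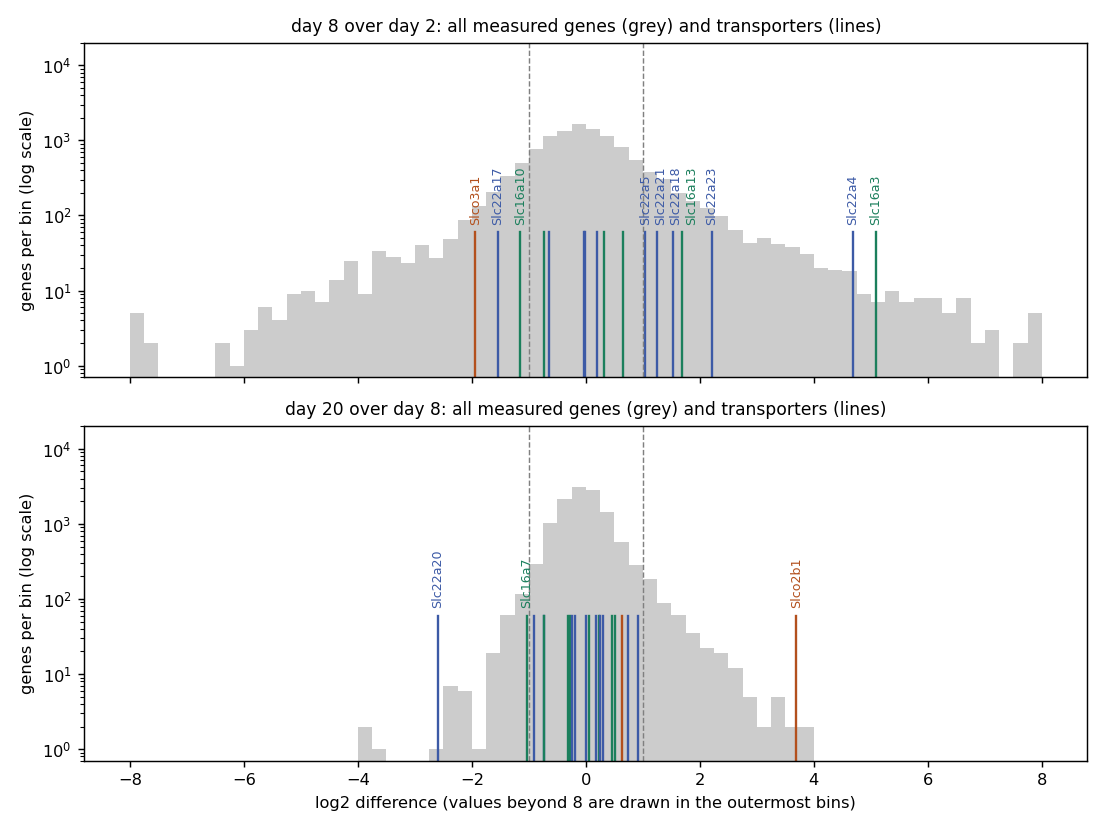
Distribution of log2 differences (x axis) over all measured genes (grey bars, number of genes per bin of width 0.25 on a log scale) with each measured transporter gene as a line, coloured by family (green Slc16a, blue Slc22a, orange Slco), for day 8 over day 2 (top) and day 20 over day 8 (bottom). Transporters past 2-fold are named: 10 in the top panel and 3 in the bottom panel.

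Day 20 compared with day 2 spans both intervals and shares its arrays with the comparisons above. On day 20, 6 (35.3%) of 17 members measured on both days stood at least 2-fold higher, where 15.5% of all 11889 measured genes were, and 4 (23.5%) were at least 2-fold lower, where 17.0% of all genes were; 32.5% of all genes passed 2-fold in either direction. Slc16a3 was at 5.14 and Slc22a4 at 4.99. Slc22a23, Slc22a18, Slc16a13 and Slc22a21 followed at 2.46, 2.45, 2.21 and 1.41, while Slc22a20, Slc22a17, Slc16a7 and Slco3a1 were at -2.62, -2.28, -1.77 and -1.30. Of these, Slc22a21 was at 0.50 with normexp, Slc16a13 at 0.91 with the mean of its probes, and Slco3a1 at -0.77 with normexp and -0.61 with spike-in scaling, all under 2-fold. Of 6 members detected on day 20 but not on day 2, 3 were at least 2-fold higher as bounds, Slco2b1, Slc16a11 and Slco4a1, where 55.4% of such genes were, and 0 members were detected on day 2 but not on day 20, where 33.3% of such genes were at least 2-fold lower. The 5 remaining members measured on all days, Slc16a4, Slc16a6, Slc22a13, Slc22a15 and Slc22a28, stayed under 2-fold in every comparison with the main processing. Slc16a6 was past 2-fold for day 20 over day 2 in 3 of 9 alternatives, at most 1.57 with spike-in scaling. Slc22a15 was at 1.39 with spike-in scaling for day 20 over day 8 and for day 20 over day 2.

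The other 30 members were not well above background on any array, with values between -8.25 and -5.52. They included Slc22a3, encoding the monoamine transporter OCT3. The carnitine transporter gene Slc22a16 was among them too, as was Slco2a1, encoding the prostaglandin transporter, and both Slc47a genes. The urate transporter gene Slc22a12 and the organic anion transporter genes Slc22a7 and Slc22a8 of liver and kidney were also below this limit. Also among them were Slc16a5, Slc16a9, Slc16a12, Slc16a14, Slc22a14, Slc22a19, Slc22a22, Slc22a26, Slc22a27, Slc22a29, Slco1a1, Slco1a4, Slco1a5, Slco1a6, Slco1b2, Slco1c1, Slco4c1, Slco5a1, Slco6c1 and Slco6d1. Each was measured by 1 or 2 probes, and a transcript below this limit was not detectable here rather than absent. Of 9 hepatocyte markers, 4 were detected on some array, namely Apoa2, Serpina1a, Tat and Cyp2e1, and Alb, Ttr, Apoa1, Hnf4a and Fgb were on none. Of 8 kidney tubule markers, 5 were, namely Cubn, Slc5a2, Aqp1, Ggt1 and Miox, and Lrp2 and Slc34a1 were among those on none. Both counts stand beside 66.8% of all named genes detected on at least 1 array. Serpina1a, Tat, Slc5a2, Ggt1 and Miox were dim, at -5.05 or lower on every array.

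Genes that work with the transporters were examined as lists. For day 8 over day 2, each count is to be read against the 13.8% of all measured genes that were at least 2-fold higher and the 12.9% that were lower, with a median of -0.06. The monocarboxylate transporters reach the cell surface with a chaperone, either basigin (Bsg) or embigin (Emb). Bsg had levels of 3.87, 6.01 and 6.34 on days 2, 8 and 20, higher on day 8 than on day 2 by 2.14 (SD 0.060). Emb had levels of -1.42, -4.29 and -4.83, lower on day 8 than on day 2 (-2.87, SD 0.141). On day 20 compared with day 8 they were at 0.34 and -0.54. In lactate, pyruvate and ketone body metabolism, day 8 was at least 2-fold above day 2 for 4 of 13 measured genes and below it for 1, and the median was 0.28. Hcar1, encoding the lactate receptor, was at 4.25 and Pdk1, which inhibits pyruvate dehydrogenase, at 3.68. Hcar2, the receptor for the ketone body hydroxybutyrate, was at 1.94, and Ldhd, encoding D-lactate dehydrogenase, was at least 2.38-fold higher. The lactate dehydrogenase genes Ldha and Ldhb were at 0.36 and -0.35. For day 20 over day 8, Hcar2 was at -1.32 and Ldhd at 1.14.

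Of 10 genes of the carnitine shuttle and carnitine synthesis measured on days 8 and 2, 1 was past 2-fold on the higher side and 1 on the lower side, near the shares over all genes, and the median was 0.22. Aldh9a1, an enzyme of carnitine synthesis, was at 1.33 and Cpt1c, the neuronal carnitine palmitoyltransferase, at -1.22. Bbox1, which makes carnitine in its last step, was at least 3.18-fold lower on day 20 than on day 8. In thyroid hormone handling, 1 of 4 measured genes was past 2-fold on the higher side on day 8 and 2 on the lower side, with a median of -0.68. Thrsp, a lipogenic target of thyroid hormone, was at 5.48, Slc7a5, an amino acid transporter that also carries thyroid hormone, at -3.59, and the deiodinase gene Dio1 at -1.65. The receptor gene Thrb was at least 6.02-fold higher on day 8 than on day 2 and higher by 1.17 on day 20 than on day 8, and Dio1 was at least 2.09-fold lower on day 20 than on day 8.

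Prostaglandin genes, listed beside Slco2a1 and Slco3a1, had 2 of 10 measured members past 2-fold on the higher side on day 8 and 3 on the lower side, against 13.8% and 12.9% of all genes, and the median was -0.42. Ptgs1, encoding a cyclooxygenase, was at -2.67, Ptges3 at -1.33 and the prostacyclin synthase gene Ptgis at 1.83, and Hpgd, which inactivates prostaglandins, was at least 3.30-fold lower. Ptgs1 was higher on day 20 than on day 8 by 1.25. Among monoamine and polyamine genes, 2 of 7 were higher and 1 lower: Aoc3, an amine oxidase of the adipocyte surface, was at 5.46, the polyamine oxidase gene Smox at 1.20 and the vesicular transporter gene Slc18a2 at -1.19, with a median of 0.70; Maob was at least 2.58-fold higher on day 20 than on day 8. In steroid sulphate and urate handling 3 of 6 were higher and 0 lower, with the sulphotransferase genes Sult1a1 and Sult2b1 at 6.53 and 3.85 and the glucocorticoid-activating enzyme gene Hsd11b1 at 1.89, and the median was 0.98. Of 7 measured regulators of transporter genes 1 was at least 2-fold higher, Pparg at 1.71, and 0 were at least 2-fold lower, beside 13.8% and 12.9% of all genes. Their median was -0.02. Ahr, the receptor for dioxin-like compounds, was dim on day 2, with a bound of at least 3.96-fold higher on day 8, and was higher by 1.38 on day 20 than on day 8.

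**Figure D4:**
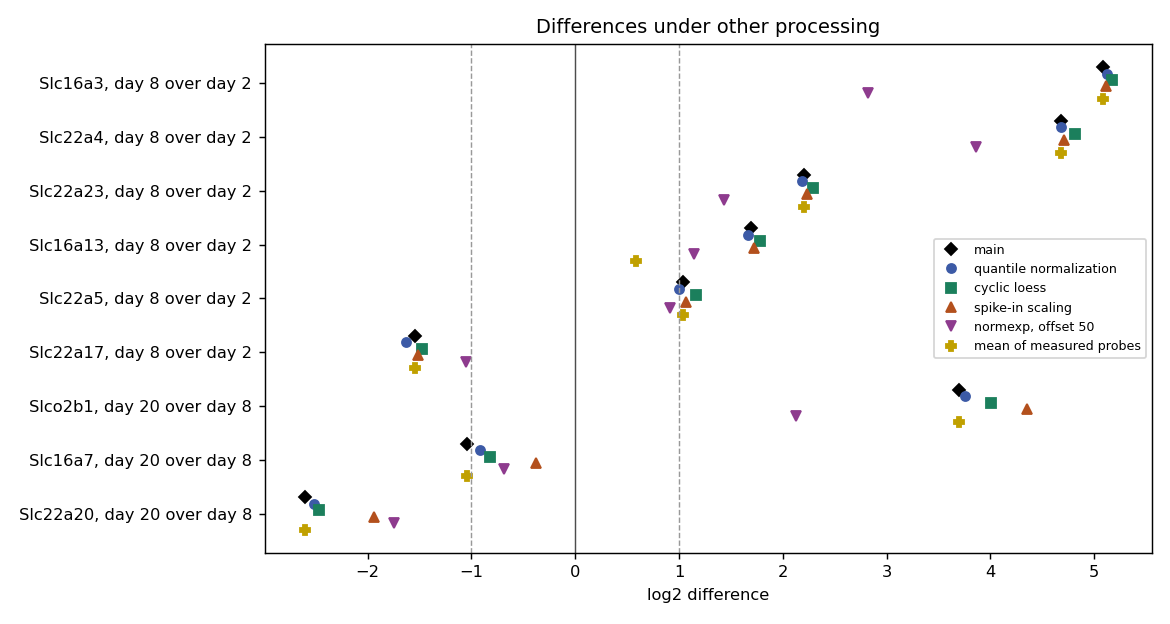
Log2 differences (x axis) of 9 transporter comparisons (rows) under the main processing (black diamonds) and under 5 of the alternatives (coloured symbols), with dashed lines at 2-fold. Slc16a3, Slc22a4, Slco2b1 and Slc22a20 stayed past 2-fold on their side in each; Slc16a13 fell under 2-fold with the mean of its probes, Slc22a5 with normexp, and Slc16a7 with quantile normalization, cyclic loess, spike-in scaling and normexp.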

How the data were processed

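Spot intensity values were deposited for 3 arrays on 1 slide. The submitters' processing notes name Feature Extraction 10.7.1.1, Agilent's scanner software. Per the file headers, the processed intensity has its background removed, with no scaling between arrays, and other deposited columns mark spots as yes or no. In the deposited series table, each log2 value is the log2 processed intensity shifted by -9.37, -9.31 or -9.86 on days 2, 8 or 20, to within 0.01 for 99.7% of probes (column medians -4.80, -4.69 and -4.89).

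Here log2 intensity was centred on the 75th percentile of 39429 probes, without controls and outlier spots. Accessions named 26581 probes through a RefSeq table of GRCm38.p6; the array design names mm9, so no probe positions are given, and the start-site windows and gene neighbours are those of GRCm38.p6. Technical SDs came from 244 to 245 probes printed 10 times, in 8 signal bins. The SD of a gene was interpolated between bins at its signal, and signals beyond the outermost bins took the value of that bin. A log2 difference of 1 was 2-fold. The number of arrays, 1 per day, limits the precision and allowed no test. The code was tested on simulated data. Alternatives used limma 3.58.1 (quantile, cyclic loess, and normexp with offset 50 on the median signal, the only raw signal column used here), 8 spike-in probes, other probe choices and other filters, with Python 3.11.15 and R 4.3.3.

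The rule named all members and, per list and comparison, up to 4 genes past 2-fold by size, plus Bsg, Emb, Ldha and Ldhb. The families and lists were picked with earlier results of these data known, and the members of a family were then taken by symbol. Some genes are counted but not reported here by name.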

Additional observations from a re-analysis of the deposited data

How the results depend on the processing

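Of 23 member differences past 2-fold, 23 kept their sign in every alternative that gave a value and 13 also stayed past 2-fold. Of 32 differences under 2-fold, 21 kept their sign. For day 8 over day 2, members at least 2-fold higher numbered 7, but 4 with normexp and 15 without a filter on dim probes; members lower numbered 3, but 1 with normexp and 0 above the lower quartile of signal. For day 20 over day 8, 1 was higher, but 2 with cyclic loess, 6 with spike-in scaling, 3 without the filter and 0 above the lower quartile; 2 were lower, but 1 with quantile normalization, cyclic loess, normexp, spike-in scaling or the percentile over detected probes, 8 without the filter and 0 above the lower quartile. For day 20 over day 2, 6 were higher, but 11 without the filter, 9 with spike-in scaling, 8 with cyclic loess or the percentile over detected probes and 4 above the lower quartile; 4 were lower, but 6 without the filter, 3 with spike-in scaling or normexp and 0 above the lower quartile. The member median for day 8 over day 2 was 0.32, but 0.13 with normexp, 0.45 with the percentile over detected probes, -0.0074 without the filter and 1.95 above the lower quartile. For day 20 over day 8 it was 0.06, but -0.084 with normexp, 0.72 with spike-in scaling, -0.14 without the filter and 0.25 above the lower quartile. For day 20 over day 2 it was 0.70, but 0.98 with cyclic loess, 0.21 with normexp, 1.39 with spike-in scaling, 0.90 with the percentile over detected probes, -0.16 without the filter and 2.33 above the lower quartile. Detected members numbered 24, but 44 with the permissive mark. The alternative above the lower quartile tests fewer genes. It left 0 lower members in each comparison, so every member counted as lower had a mean signal below that quartile. All counts of higher or lower members here are past 2-fold, and without the filter all 54 members were compared. Counts over all genes moved too. For day 20 over day 8, spike-in scaling placed 2051 of 12321 genes higher and 21 lower, beside 441 and 214 with the main processing. For day 20 over day 2, it placed 3793 of 11889 higher and 704 lower, beside 1841 and 2017. With normexp, 1268 genes were higher and 1196 lower for day 8 over day 2, beside 1666 and 1555. The shares of all genes beside the counts were not matched for signal. Other causes were not tested. Dim spots near background and a single array per day limit how precisely a difference is known. No paired analysis was possible because each day has 1 array.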
